A study of Mus musculus with 8 samples.

Results

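Expression of 10 genes was followed through bulk RNA sequencing of mouse retina: the transcription factor genes Tfap2a, Tfap2b, Tfap2c and Pax6, grouped as amacrine factors, and Lhx1, Onecut1, Onecut2, Onecut3, Prox1 and Calb1, grouped as horizontal cell genes. They were the rows of the deposited tables with these gene names, 10 of 54532 genes. The 8 libraries were 4 labelled sIVs, an abbreviation that the study uses for small intracellular vesicles, and 4 labelled PBS, the control. Each group holds replicates numbered 1, 3, 4 and 5, and the series concerns vesicle uptake, drug delivery and protection of retinal neurons. The sources used here give neither strain, genotype, age, dose, route, time nor injury model for either group, and do not say whether the libraries came from separate animals. All p-values therefore measure the spread between these samples, which may be technical.

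Amacrine cells are interneurons of the inner retina, mostly inhibitory, that shape the signal passing between bipolar and ganglion cells. Horizontal cells are interneurons of the outer retina that return inhibition to photoreceptors. Both arise in the embryo from progenitors that share factors such as Foxn4 and Ptf1a, and they then keep different sets of factors in the adult. TFAP2A, TFAP2B and TFAP2C are AP-2 family proteins, and the first pair act in the development of both cell types. PAX6 has a paired domain and a homeodomain and stays on in amacrine, ganglion and horizontal cells. LHX1 is a LIM homeodomain factor that places horizontal cells in their layer, the ONECUT factors join a cut domain to a homeodomain and act early in horizontal cell fate, and PROX1 is a divergent homeodomain factor needed for horizontal cells and also present in AII amacrine and some bipolar cells. Calb1 encodes calbindin, a calcium-binding protein and not a transcription factor. In mouse retina calbindin also marks some amacrine and ganglion cells, so it is treated here as a marker.

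Of the 10 members, 0 passed an adjusted p of 0.05 between sIVs and PBS retinas by edgeR's quasi-likelihood test, as did 0% of all genes tested. The log2 fold change, sIVs over PBS, was below 0 for all 4 amacrine factors and for 5 of the 6 horizontal cell genes, with Calb1 the exception. The changes had medians of -0.08 over the amacrine factors and -0.10 over the horizontal cell genes, beside 0.01 over the 17004 genes tested. Of all genes tested, 48.7% had a change below 0. Both medians moved with single libraries. Without sIVs replicate 4 the horizontal median was -0.02, with 2 of the 6 genes above 0, and the amacrine median -0.09. The horizontal median also moved by over 1.5 times without sIVs replicate 3, to -0.28, sIVs replicate 5, to -0.16, PBS replicate 4, to -0.16, and PBS replicate 5, to -0.05. The amacrine median did so without sIVs replicate 5, PBS replicate 1 and PBS replicate 4, to between -0.14 and -0.13. In bulk tissue, fewer cells of a type and less RNA per cell cannot be told apart.

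The libraries held 13915203 to 16009589 counts in the sIVs group and 13803958 to 16622259 in the PBS group. No gene of the 17004 passed an adjusted p of 0.05 by edgeR's quasi-likelihood test, DESeq2 or limma-voom, and 255 had an unadjusted edgeR p below it. As a check of the tissue, 10 cone markers summed to 879 to 1201 CPM in the sIVs libraries and 779 to 1009 CPM in the PBS libraries (CPM, here counts over the TMM-normalized library total). The library sIVs replicate 4 stood apart. Genes were put in 5 length bins of 3400 to 3402 genes each. In sIVs replicate 4, genes of the shortest bin lay at a median of 0.63 above the mean of the other 7 libraries in log2 CPM, and genes of the longest bin at -0.52. The medians of the other libraries stayed between -0.12 and 0.14 in all bins. Its summed level of 12 pigment epithelium markers was 481 CPM, against 18.0 to 69.3 CPM in the other sIVs libraries and 18.0 to 66.0 CPM in the PBS libraries. None of the 12 markers was at 0 in all libraries. Markers of some other cell types lay on the other side from most members. Of 12 microglia and macrophage markers, which summed to 169.6 to 379 CPM in the sIVs libraries and 62.3 to 276 CPM in the PBS libraries, 12 had a log2 fold change above 0 (median 0.55, and 0.27 with 11 above 0 without sIVs replicate 4). Of 12 rod markers, which summed to 40363 to 65906 CPM in the sIVs libraries and 34133 to 64212 CPM in the PBS libraries, 11 were above 0 (median 0.20, and 0.13 with 12 above 0 without that library). The low microglia and macrophage sum of 62.3 CPM was in PBS replicate 1, and the other PBS libraries had 197.6 to 276 CPM. The highest rod sum of each group was in its replicate 1, and the other libraries had 34133 to 53308 CPM. None of either list passed the threshold, and the part of these markers in the members' values was not tested.

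Sequence just upstream is shown for the promoters of 3 members, the abundant amacrine factor Pax6 and the horizontal cell genes Prox1 and Onecut1, which were lowest in sIVs replicate 4. Each line gives the 250 bases before the start annotated by RefSeq on GRCm38.p6, 5′ to 3′ on the strand of the gene. Capitals mark the AP-2 family motif GCCNNNGGC. The Pax6 window is chr2:105668646-105668895 on the plus strand, the Prox1 window chr1:190170828-190171077 on the minus strand and the Onecut1 window chr9:74861671-74861920 on the plus strand.
Pax6: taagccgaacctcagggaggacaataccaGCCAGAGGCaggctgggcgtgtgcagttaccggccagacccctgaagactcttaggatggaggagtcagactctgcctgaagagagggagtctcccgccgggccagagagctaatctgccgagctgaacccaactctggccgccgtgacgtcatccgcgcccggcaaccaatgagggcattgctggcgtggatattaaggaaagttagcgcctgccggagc
Prox1: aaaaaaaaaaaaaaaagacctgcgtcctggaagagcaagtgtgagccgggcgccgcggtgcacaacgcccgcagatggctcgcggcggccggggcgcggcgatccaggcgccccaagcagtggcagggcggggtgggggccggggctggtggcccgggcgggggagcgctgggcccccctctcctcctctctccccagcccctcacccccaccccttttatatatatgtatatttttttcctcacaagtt
Onecut1: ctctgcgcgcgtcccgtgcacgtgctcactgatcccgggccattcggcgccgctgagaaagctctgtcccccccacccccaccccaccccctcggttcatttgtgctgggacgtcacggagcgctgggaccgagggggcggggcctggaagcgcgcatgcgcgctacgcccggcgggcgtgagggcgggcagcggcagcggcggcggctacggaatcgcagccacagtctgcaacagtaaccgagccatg

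The Pax6 window held 1 match to GCCNNNGGC, and the Prox1 and Onecut1 windows held 0. Of 32851 promoter windows of the same length, 13.7% held this motif on either strand. The ONECUT motif ATCAAT was in 6.72% and the homeodomain motif TAATTA in 4.84% of all windows, and neither was in these 3. Both strands were searched, and no match overlapped a match to another motif in the windows shown. The share of G and C was 60.8% for Pax6, 64.8% for Prox1 and 71.6% for Onecut1. Tfap2a, Tfap2b and Lhx1 also had a window in the RefSeq table. The Tfap2a window held 1 match to TAATTA, and a match of letters is not a binding site.

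The levels per gene length, in FPKM (fragments scaled to gene length and library total), fell into 4 steps. Tfap2b had the highest mean over the 8 libraries at 32.0 ± 4.75 FPKM (SD, n = 8), followed by Pax6 at 28.5 ± 2.81, Prox1 at 24.9 ± 4.76 and Calb1 at 17.8 ± 3.86 FPKM. The ranges of neighbours among these 4 genes overlapped, and each was above the next in 7 of 8 libraries. The order of Tfap2b and Pax6 rests on their listed lengths of 6338 and 11694 bases. In CPM, which does not use length, Pax6 averaged 340 and Tfap2b 206 over the 8 libraries. The AP-2 genes Tfap2a, at 8.54 ± 0.717 FPKM, and Tfap2c, at 6.72 ± 0.722 FPKM, formed the next step. Every library had Calb1 above Tfap2a, with ranges that did not overlap, and Tfap2a above Tfap2c, with ranges that did. Lhx1 and Onecut3 followed at 2.08 ± 0.258 and 1.60 ± 0.379 FPKM, below the whole range of Tfap2c. Onecut2 at 0.827 ± 0.174 FPKM and Onecut1 at 0.562 ± 0.313 FPKM were lowest, and their ranges overlapped each other but Onecut2 did not overlap Onecut3.

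**Figure D1:**
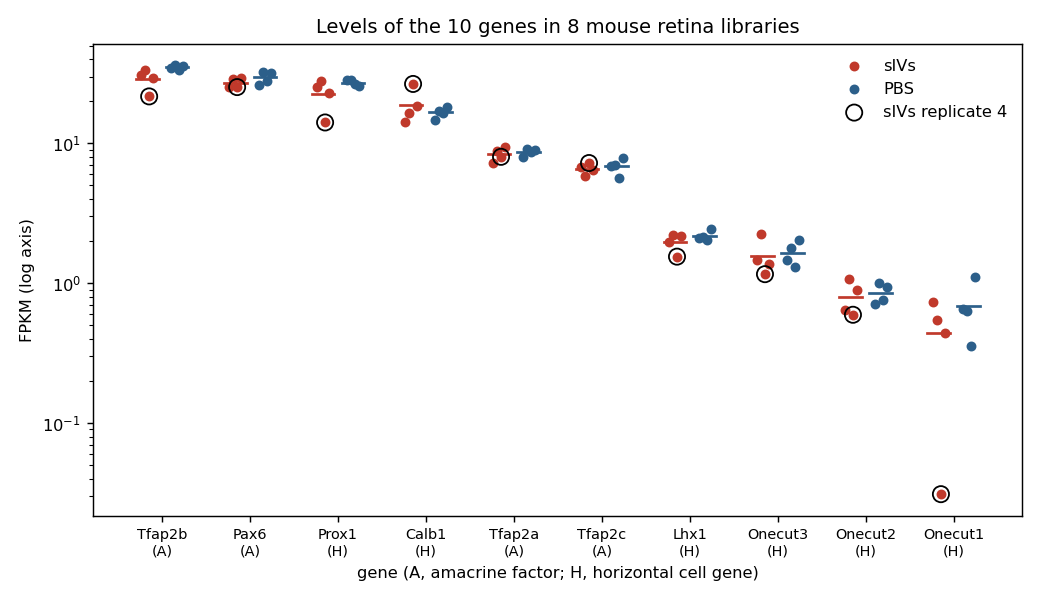
FPKM of the 10 genes on a log axis, 1 point per library, with sIVs libraries left of PBS libraries, short lines at the group means and circles around sIVs replicate 4. The genes run from Tfap2b at a mean of 32.0 FPKM to Onecut1 at 0.562 FPKM, and the groups overlap for all 10.

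Summed over their members, the amacrine factors reached 71.1 ± 6.67 FPKM in sIVs retinas and 80.2 ± 5.35 FPKM in PBS retinas (SD, n = 4 each). The horizontal cell genes summed to 46.3 ± 3.17 FPKM in sIVs retinas and 49.2 ± 1.79 FPKM in PBS retinas. The horizontal sum was mostly Prox1 and Calb1, which other retinal cells also express. The 3 ONECUT genes together made 2.80 ± 0.848 FPKM in sIVs retinas and 3.19 ± 0.719 FPKM in PBS retinas. Without sIVs replicate 4, the remaining 3 sIVs libraries averaged 74.1 ± 3.69 FPKM for the amacrine sum, 47.1 ± 3.41 FPKM for the horizontal sum and 3.13 ± 0.631 FPKM for the ONECUT sum.

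Among the amacrine factors, Tfap2b on chromosome 1 (19208914 to 19238576, mm10, plus strand) came closest to a difference. Its level was 199.9, 218, 141 and 192 CPM in sIVs replicates 1, 3, 4 and 5, against 222, 233, 215 and 232 CPM in PBS replicates 1, 3, 4 and 5. Replicates 1, 4 and 5 of the sIVs group lay below every PBS library, and replicate 3 lay inside the PBS range, so the groups overlapped. The log2 fold change was -0.26 ± 0.14 (SE; 95% confidence interval -0.57 to 0.04), with an unadjusted p of 0.0838 and an adjusted p of 0.81 by edgeR's quasi-likelihood test. Without sIVs replicate 4 it was -0.15. The counts behind it were 2157 to 4025 per library, so counting error was 1.83% of the level and the spread between libraries 14.5%. Without sIVs replicate 4 that spread was 7.12%.

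Pax6, on chromosome 2 (105668900 to 105697364, plus strand), had 302, 345, 304 and 353 CPM in the sIVs libraries, against 312, 386, 334 and 381 CPM in the PBS libraries. Replicates 1 and 4 of the sIVs group lay below all PBS libraries and the others inside their range. In log2 the difference was -0.12 ± 0.11 (adjusted p = 0.81 by edgeR), a fold of 0.923 with a 95% confidence interval of 0.771 to 1.10. An antisense gene in the same place, Pax6os1, had 83 to 166 counts per library, at most 3.58% of the Pax6 count, and was highest in sIVs replicate 4. Whether counting used strand is not given in the sources used here.

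Tfap2a and Tfap2c, the less abundant AP-2 genes, showed no side. Tfap2a, on chromosome 13 (40715302 to 40738376, minus strand), had 36.3, 44.1, 40.4 and 47.2 CPM in the sIVs libraries, against 40.0, 45.7, 43.2 and 44.7 CPM in the PBS libraries. Its lowest and its highest library were both in the sIVs group. Its log2 fold change was -0.05 ± 0.11 (adjusted p = 0.894 by edgeR), and the 95% interval of the fold was 0.815 to 1.15. Tfap2c, on chromosome 2 (172549593 to 172558622, plus strand), had 25.3, 22.0, 27.4 and 24.5 CPM in the sIVs libraries, against 25.6, 26.3, 21.2 and 29.4 CPM in the PBS libraries. All sIVs values lay inside the PBS range, and the log2 fold change was -0.05 ± 0.13 (adjusted p = 0.911 by edgeR). The spread between the 8 libraries was 8.33% of the mean for Tfap2a and 10.7% for Tfap2c.

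The AP-2 family kept its order in every library, with Tfap2b first and Tfap2a ahead of Tfap2c. Tfap2b made up 68.8%, 69.7%, 58.7% and 65.0% of the summed FPKM of the 3 genes in the sIVs libraries, against 69.8%, 69.1%, 70.0% and 68.1% in the PBS libraries. The lowest shares were in sIVs replicates 4 and 5, and sIVs replicates 1 and 3 lay inside the PBS range. Tfap2b over Pax6 in FPKM was 1.06 ± 0.165 in sIVs retinas and 1.18 ± 0.0906 in PBS retinas (SD, n = 4 each), with sIVs replicates 4 and 5 lowest at 0.858 and 1.00. The sIVs mean was 1.13 ± 0.114 without sIVs replicate 4.

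**Figure D2:**
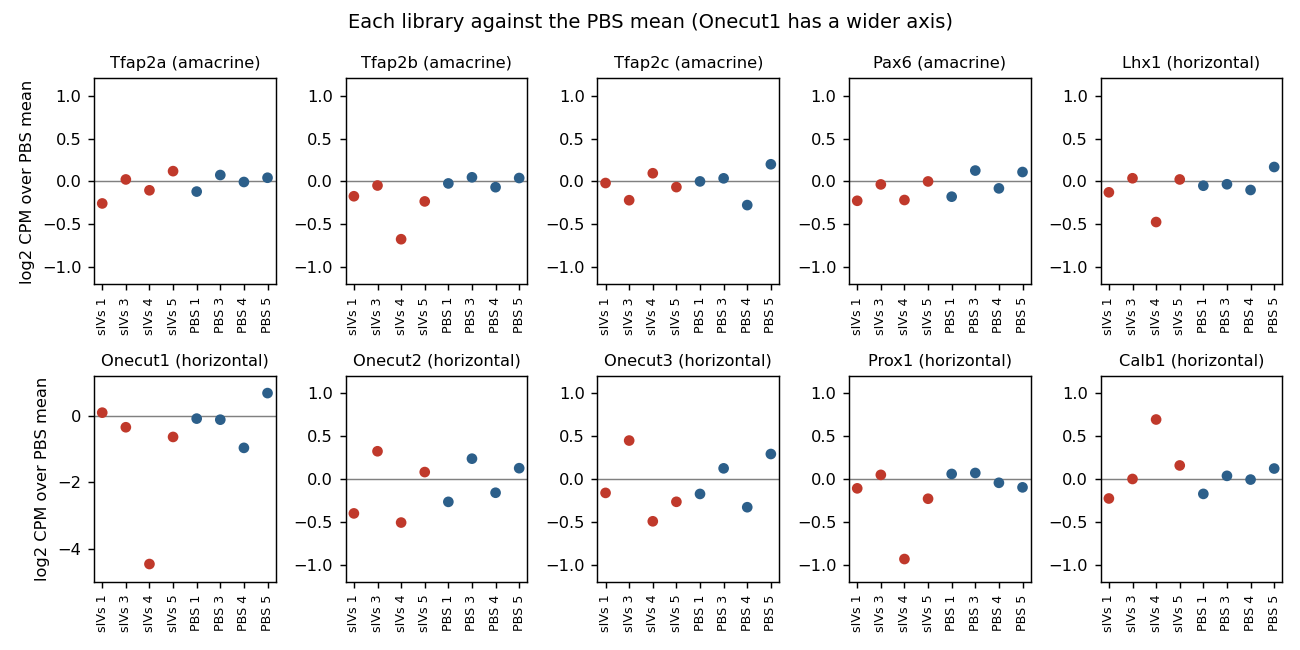
Log2 ratio of CPM in each library to the mean of the PBS libraries for each of the 10 genes, with the sIVs libraries left of the PBS libraries and a wider vertical axis for Onecut1. The point for sIVs replicate 4 is lowest of 8 for Tfap2b, Lhx1, Onecut1, Onecut2, Onecut3 and Prox1, and highest for Calb1.

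Prox1 was the most abundant horizontal cell gene. It lies on chromosome 1 (190118035 to 190170714, minus strand) and had 215, 240.3, 122 and 198 CPM in the sIVs libraries, against 242, 244, 225 and 217 CPM in the PBS libraries. Replicate 4 of the sIVs group was the lowest by a wide margin, replicates 1 and 5 were also below all PBS libraries, and replicate 3 was inside their range. Its log2 fold change was -0.26 ± 0.19 (95% confidence interval -0.68 to 0.16, adjusted p = 0.81 by edgeR) and was -0.09 without sIVs replicate 4. The antisense gene Prox1os, which overlaps Prox1, had 8.38 CPM in sIVs replicate 4 and 4.28 to 6.11 CPM in the other libraries, so it was high where Prox1 was low.

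Calb1, on chromosome 4 (15881264 to 15908064, plus strand), went the other way. It had 70.1, 82.0, 133 and 91.5 CPM in the sIVs libraries, against 72.7, 84.1, 81.6 and 89.3 CPM in the PBS libraries. Replicate 4 of the sIVs group stood above all others, and replicate 1 of the same group was the lowest of the 8. The log2 fold change of 0.20 ± 0.19 (adjusted p = 0.81 by edgeR) became -0.02 without sIVs replicate 4. The remaining 3 sIVs libraries averaged 81.2 ± 10.7 CPM, against 81.9 ± 6.91 CPM in the 4 PBS libraries.

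Within a library, the FPKM of Calb1 over Prox1 was 0.563, 0.591, 1.89 and 0.80 in the sIVs libraries, against 0.52, 0.597, 0.627 and 0.711 in the PBS libraries. Prox1 exceeded Calb1 in 7 libraries and was below it in sIVs replicate 4. Prox1 over Pax6 was 0.558 in that library, against 0.782 to 1.08 in the other 7.

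**Figure D3:**
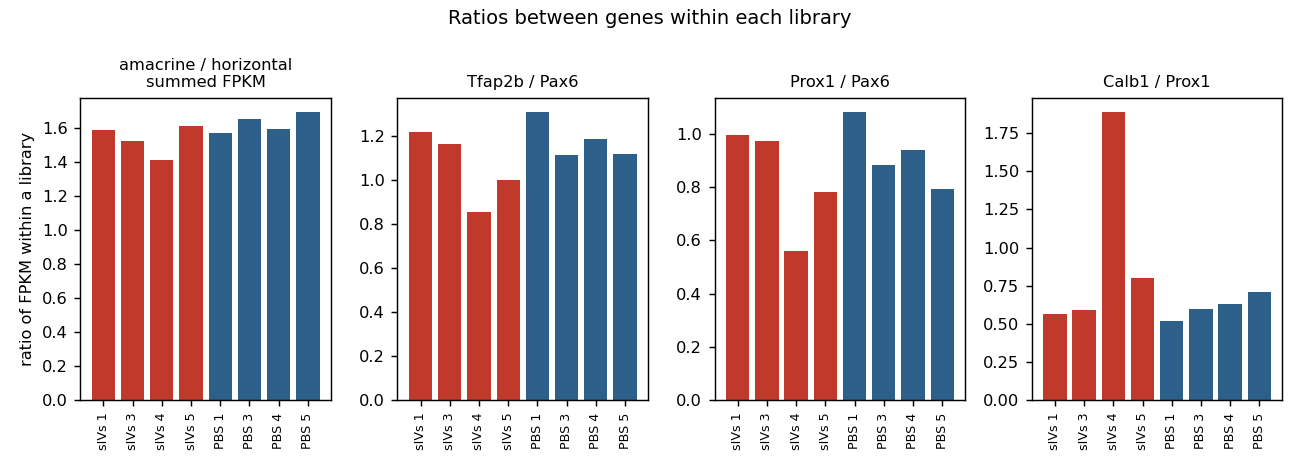
Ratios of FPKM within each library, from 0, with sIVs libraries left of PBS libraries: summed amacrine factors over summed horizontal cell genes, Tfap2b over Pax6, Prox1 over Pax6 and Calb1 over Prox1. Calb1 over Prox1 is 1.89 in sIVs replicate 4 and at most 0.80 in the others, while the summed ratio stays between 1.41 and 1.69.

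Lhx1, on chromosome 11 (84518284 to 84525535, minus strand), had 8.24, 9.23, 6.48 and 9.14 CPM in the sIVs libraries, against 8.69, 8.80, 8.40 and 10.1 CPM in the PBS libraries. Replicates 1 and 4 of the sIVs group lay below all PBS libraries, and the highest value was in the PBS group. In log2 the fold change was -0.12 ± 0.17 (adjusted p = 0.83 by edgeR), and -0.02 without sIVs replicate 4. Lhx1 rested on 99 to 168 counts per library, which gives a counting error of 8.89%, beside a spread of 12.1% between libraries. Without sIVs replicate 4 the spread was 7.01%, below the counting error.

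The ONECUT genes had the lowest FPKM of the 10 members. Onecut1, on chromosome 9 (74861921 to 74891781, plus strand), had 43, 32, 2 and 27 counts in the sIVs libraries, against 36, 46, 22 and 77 counts in the PBS libraries. In CPM these were 3.08, 2.27, 0.131 and 1.86 in the sIVs libraries, against 2.72, 2.66, 1.48 and 4.63 in the PBS libraries. Replicate 4 of the sIVs group was lowest, and its 2 counts have an exact Poisson 95% interval of 0.242 to 7.22 counts, below the interval of every other library; this interval covers counting error only. The log2 fold change was -0.65 ± 0.65 (95% confidence interval -2.11 to 0.81, adjusted p = 0.81 by edgeR), and -0.26 without that library. The remaining 3 sIVs libraries lay inside the range of the PBS libraries.

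Onecut2, on chromosome 18, had 8.81, 14.6, 8.19 and 12.3 CPM in the sIVs libraries, against 9.68, 13.7, 10.4 and 12.7 CPM in the PBS libraries. The sIVs group held both the lowest and the highest library, and the log2 fold change was -0.09 ± 0.22 (adjusted p = 0.903 by edgeR). Onecut3, on chromosome 10 (80494835 to 80517276, plus strand), had 7.17, 10.9, 5.70 and 6.67 CPM in the sIVs libraries, against 7.11, 8.74, 6.38 and 9.81 CPM in the PBS libraries. Here too the extremes were both in the sIVs group, and the log2 fold change was -0.07 ± 0.24 (adjusted p = 0.924 by edgeR). Without sIVs replicate 4 both estimates changed sign, to 0.03 for Onecut2 and 0.04 for Onecut3.

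Onecut3 made up 51.6%, 58.3%, 65.0% and 50.5% of the summed FPKM of the ONECUT genes in the sIVs libraries, against 51.8%, 52.3%, 54.0% and 49.7% in the PBS libraries. Onecut1 made up 1.73% in sIVs replicate 4 and 14.1% to 27.3% in the other 7 libraries. The ratio of Onecut2 to Onecut3 was 0.521 ± 0.0963 in sIVs retinas and 0.522 ± 0.0577 in PBS retinas (SD, n = 4 each), with overlapping ranges.

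**Figure D4:**
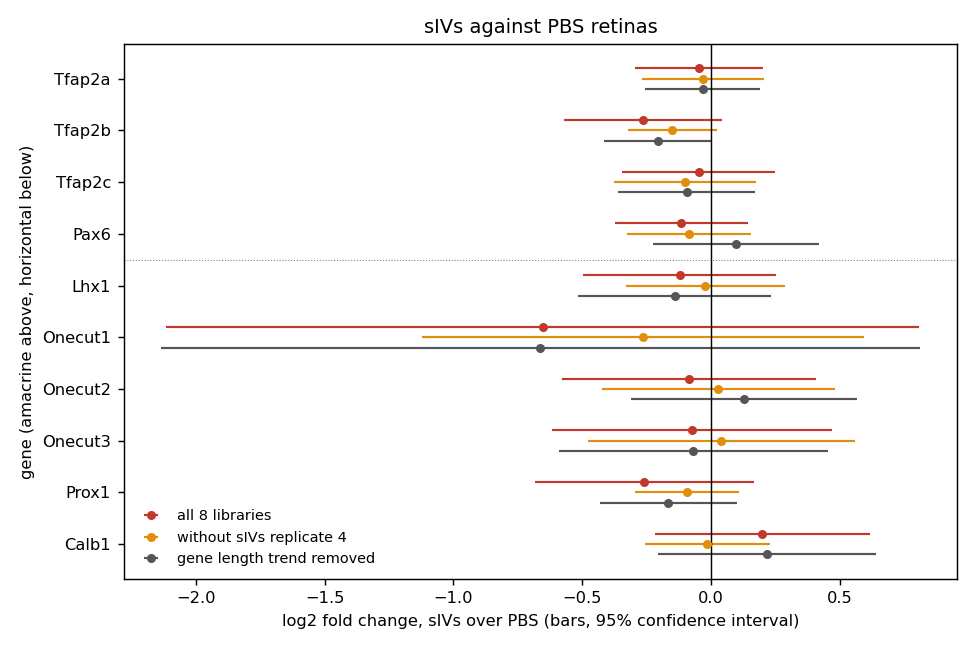
Log2 fold change, sIVs over PBS, of the 10 genes, with amacrine factors above horizontal cell genes and bars for 95% confidence intervals, from all 8 libraries, without sIVs replicate 4, and with each library's trend on gene length removed. Every interval includes 0, and Calb1 is at 0.20 with all libraries and -0.02 without sIVs replicate 4.

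Set side by side, the amacrine factors and the horizontal cell genes were also counted at other limits, with all 8 libraries. At an unadjusted p of 0.05 the count was 0 of 10, beside 1.5% of all genes, of which 1.04% were higher and 0.459% lower in sIVs retinas. Without sIVs replicate 3, Tfap2b had an unadjusted edgeR p of 0.0404 and an adjusted p of 0.579. In that fit 958 of 17338 genes had an unadjusted edgeR p below 0.05. Groups without overlap in CPM were found for 0 of 10 members, beside 2.01% of all genes, of which 1.08% were higher and 0.929% lower. The amacrine over horizontal ratio of summed FPKM was 1.59, 1.52, 1.41 and 1.61 in the sIVs libraries, against 1.57, 1.65, 1.60 and 1.69 in the PBS libraries. Replicates 3 and 4 of the sIVs group were lowest and the groups overlapped. With Calb1 left out of the horizontal sum, the ratio was highest in sIVs replicate 4, at 3.57, against 2.26 to 2.68 in the other libraries. The group means were then 2.71 ± 0.597 in sIVs retinas and 2.46 ± 0.158 in PBS retinas (SD, n = 4 each). Without sIVs replicate 4 that sIVs mean was 2.43 ± 0.221.

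A second measure, the mean log2 CPM of the amacrine factors minus that of the horizontal cell genes, gives each gene the same weight. It was 2.32, 2.18, 2.98 and 2.43 in the sIVs libraries, against 2.37, 2.36, 2.49 and 2.23 in the PBS libraries. The difference of the group means, sIVs minus PBS, was 0.12, and -0.05 without sIVs replicate 4. The library sIVs replicate 4 was the highest by this measure and the lowest by the ratio of sums with Calb1 included. Leaving Onecut1 out of the horizontal set gave 1.78 ± 0.152 in sIVs retinas and 1.81 ± 0.0292 in PBS retinas (SD, n = 4 each), and without sIVs replicate 4 the sIVs mean was 1.74 ± 0.149. Neither measure was tested, as each is a score over chosen genes.

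The library sIVs replicate 4 had the lowest value of 8 for 5 of the 6 horizontal cell genes, Lhx1, Onecut1, Onecut2, Onecut3 and Prox1, and for 1 of the 4 amacrine factors, Tfap2b. It was also lowest for 35.4% of all genes tested and highest for 35.7%. Its distance from the mean of the other 7 libraries, in log2 CPM, was -3.33 for Onecut1, -0.89 for Prox1, -0.61 for Tfap2b and between -0.49 and -0.45 for Onecut2, Onecut3 and Lhx1. Pax6 was at -0.18, Tfap2a at -0.09, Tfap2c at 0.14 and Calb1 at 0.71. Ranked over all genes tested, Onecut1 stood at the 0.77 percentile of this distance, Prox1 at the 13.3 percentile and Calb1 at the 82.0 percentile.

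**Figure D5:**
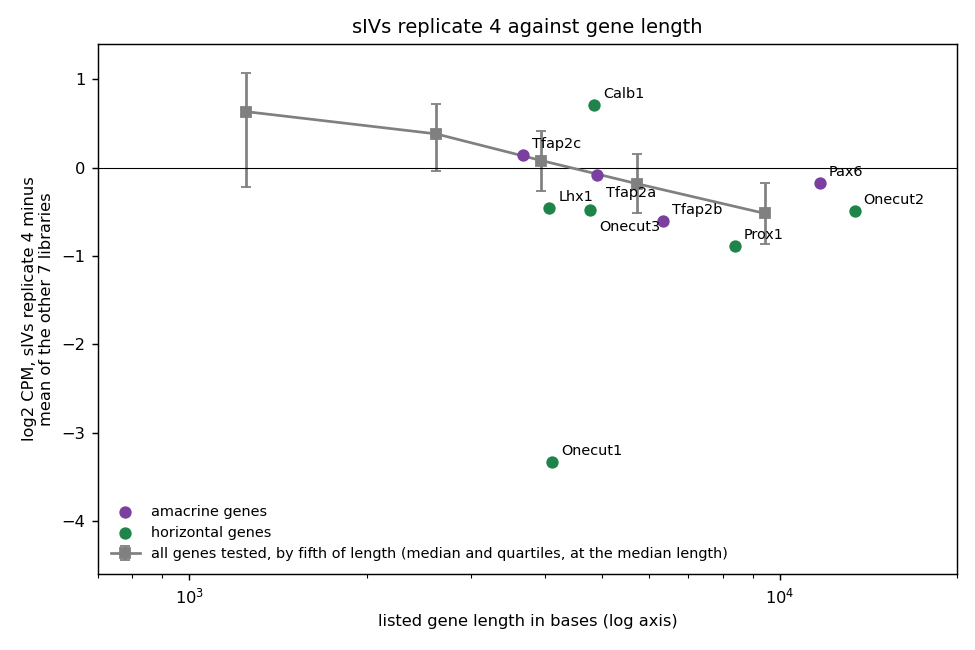
Log2 CPM in sIVs replicate 4 minus the mean of the other 7 libraries, against listed gene length in bases on a log axis, for the 10 genes; squares and bars give the median and quartiles of all genes tested in 5 length bins. The medians are 0.63 in the shortest bin and -0.52 in the longest, Onecut1 lies at -3.33 and Calb1 at 0.71.

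Gene length moved with these distances over all genes. With each library's trend on gene length removed, a step chosen after seeing the data, the distance of sIVs replicate 4 was -0.39 for Tfap2b, -0.50 for Prox1, 0.42 for Pax6 and 0.19 for Onecut2. It was -3.39 for Onecut1 and 0.76 for Calb1, as large as without that step. The log2 fold changes, sIVs over PBS, were then -0.21 for Tfap2b, -0.17 for Prox1, 0.22 for Calb1 and -0.66 for Onecut1. Pax6 and Onecut2 changed sign, to 0.10 and 0.13. The lowest adjusted p of any member was 0.922 in that fit of edgeR's quasi-likelihood test. The part of the pigment epithelium signal in the members' values was not tested.

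Other genes of the same cell types were counted from lists. Of 24 other transcription factors of amacrine cells, 21 had enough counts to test. The log2 fold change was above 0 for 10 and below 0 for 11, with a median of -0.02 and 0 past the threshold. Without sIVs replicate 4, 8 were above 0 and 13 below, with a median of -0.03. Ebf3, a DNA-binding factor, averaged 38.6 ± 6.06 CPM in sIVs retinas and 46.6 ± 4.64 CPM in PBS retinas (SD, n = 4 each), a log2 fold change of -0.27 ± 0.14. Zfhx3, a zinc finger homeobox factor, averaged 37.8 ± 11.0 CPM in sIVs retinas and 49.6 ± 5.41 CPM in PBS retinas, a log2 fold change of -0.39 ± 0.20. The log2 fold changes without sIVs replicate 4 were -0.17 for Ebf3 and -0.24 for Zfhx3. The groups overlapped for both, and both had an adjusted p of 0.81 by edgeR's quasi-likelihood test. The progenitor factors Foxn4 and Ptf1a were at most 0.269 and 0.151 CPM in any library and were not tested.

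Of 22 amacrine transmitter and structure genes, all tested, 13 had a log2 fold change above 0 and 9 below, with a median of 0.05 and 0 past the threshold. Gad2, which makes the inhibitory transmitter GABA, had the smallest p, with 66.6 ± 11.0 CPM in sIVs retinas and 81.4 ± 7.11 CPM in PBS retinas (SD, n = 4 each) and a log2 fold change of -0.29 ± 0.14. Stx1a, a syntaxin of transmitter release, was at 0.35 ± 0.19, and Npy, a neuropeptide, at 0.45 ± 0.30. Without sIVs replicate 4, Gad2 was at -0.19, Stx1a at 0.18 and Npy at 0.21, and the list had 8 genes above 0 and 14 below, with a median of -0.02. All 3 had an adjusted p of 0.81 by edgeR's quasi-likelihood test.

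Of 12 other horizontal cell genes, 6 had a log2 fold change above 0 and 6 below, with a median of 0.05 and 0 past the threshold. C1ql1, a secreted protein of the complement C1q type, was at 0.34 ± 0.20, Cartpt, a neuropeptide precursor, at 0.51 ± 0.32, and Sebox, a homeobox gene that is also on the bipolar list, at 0.29 ± 0.19. All 3 were highest in sIVs replicate 4, as Calb1 was, with 219.7, 210.0 and 105 CPM there. Without that library their log2 fold changes were 0.10 ± 0.12 for C1ql1, 0.02 ± 0.11 for Cartpt and 0.06 ± 0.11 for Sebox. The list of 12 then had 7 genes above 0 and 5 below, with a median of 0.02. The horizontal cell connexin gene Gja10, chosen after its values were seen, was low there as Onecut1 was, at 0.655 CPM in sIVs replicate 4, against 2.20 to 4.05 CPM in the other sIVs libraries and 1.81 to 2.95 CPM in the PBS libraries. Genes of this list, which are not all particular to horizontal cells, thus lay on both sides in sIVs replicate 4. That library was highest for 6 of the 12 and lowest for 4. Of all genes tested, that library was highest for 35.7% and lowest for 35.4%. C1ql1, Cartpt and Sebox have listed lengths of 1473, 1277 and 1359 bases. They fall in the shortest length bin, where the median distance of sIVs replicate 4 was 0.63.

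The profile of each member over the 8 libraries was set beside 13787 protein-coding genes, by the root mean square difference of centred log2 CPM. All profiles share these 8 libraries and the deviation of sIVs replicate 4. The nearest gene to Tfap2b was Rap1gap2 at 0.024, followed by Lmbrd2 and Lhx4, and the nearest to Prox1 was Afap1 at 0.03. Pax6 was nearest to Fam217b at 0.034, Lhx1 to Foxo1 at 0.036, Calb1 to Pla2g15 at 0.039, Tfap2a to Dr1 at 0.045 and Tfap2c to Smad7 at 0.052. For the ONECUT genes the distances were larger: Onecut2 was nearest to Arap3 at 0.069, Onecut3 to Trpc6 at 0.085 and Onecut1 to Pcdha6 at 0.27. Such a distance also depends on how far a gene varies about its own mean, so it is not on the same scale for every member. That root mean square was 0.283 for Onecut2, 0.299 for Onecut3 and 1.18 for Onecut1. It was 0.115 for Tfap2a, 0.146 for Tfap2c and 0.309 for Prox1. Other members were farther off than many of the 13787 genes. The member nearest to Pax6 was Tfap2a, with 44 genes nearer, and the member nearest to Onecut3 was Onecut2, with 107 nearer. For Prox1 it was Tfap2b, with 460 genes nearer. No member was close to Calb1: 4466 of the 13787 genes were nearer to it than any member.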

How the data were processed

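The 8 mouse retina libraries were poly(A) selected, strand-marked and read as 150 bp pairs, per the labels' protocols. The authors deposited raw counts for 54532 genes with gene positions and lengths, and FPKM values, which equalled count over listed length and library total times a constant of 0.943 to 1.03 in each library. Per the submitters' processing notes, coordinates are on mm10. No source used here names the aligner or the counter, or says whether strand was used. Titles gave each sample its group and replicate number.

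After filterByExpr at its defaults, 17004 genes were tested in edgeR 4.0.16 (R 4.3.3, TMM factors) by the two-sided quasi-likelihood test of group alone, and p-values were adjusted by Benjamini-Hochberg over all of them at 0.05. The SE is the absolute log2 fold change over the square root of F. Log2 CPM used a prior count of 2. Alternatives used DESeq2 1.42.0, limma 3.58.1 on voom and on log2(FPKM + 1) and log2(FPKM + 0.1), other factors and filters, a replicate block, left-out libraries and, added after seeing the data, a lowess trend on gene length with a span of 0.3 and the other lists without sIVs replicate 4. The tests were checked on simulated counts. Depth was 13803958 to 16622259 counts per library, and replicates differed by more than sampling noise (lowest chi-square per degree of freedom 6.17).

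The members and lists were chosen with earlier results of these data known. Named genes were the 10 members, up to 3 genes of smallest unadjusted p in each list (those of the amacrine and horizontal lists are printed), and the nearest profiles among protein-coding genes with a mean of at least 1 CPM. Some genes that the rule took are not reported here. Foxn4, Ptf1a and the antisense genes were named outside this rule, after their values were seen. Figures were drawn with matplotlib 3.10.9, and Poisson intervals came from scipy 1.17.1. Promoter windows came from RefSeq, and no window is shown for Tfap2a and Lhx1, which overlap annotated exons.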

Additional observations from a re-analysis of the deposited data

Results flagged for a closer look

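Each set of 4 libraries was examined for a single library far from the other 3, by the gap to its nearest neighbour over the whole range. Of 94 sets, 7 passed Dixon's 95% limit (chance passes about 1 in 20). The sets share libraries and genes and are not independent, so that rate cannot say whether 7 is more than chance. Calb1 over Lhx1 in FPKM was 17.2 in sIVs replicate 4, against 7.15 to 8.41 in the other sIVs libraries and 7.03 to 8.17 in the PBS libraries. Calb1 over Tfap2a was 3.32 in that library, against 1.88 to 1.96 in the other sIVs libraries and 1.84 to 2.02 in the PBS libraries. The remaining 5 were sums of marker lists of other cell types, in CPM. In sIVs replicate 4, the pigment epithelium markers summed to 481 and the cone markers to 1201, against at most 69.3 and 925 in the other sIVs libraries and 66.0 and 1009 in the PBS libraries. The ciliary body and iris markers summed to 128 in sIVs replicate 5 and 129.9 in PBS replicate 5, against 46.9 to 53.2 in the other sIVs libraries and 44.5 to 54.7 in the other PBS libraries. The ganglion cell markers summed to 1131 in PBS replicate 5 and to between 1095 and 1099.8 in the other PBS libraries, with 1059 to 1391 in the sIVs libraries. Their part in the members' values was not tested.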

How the results depend on the processing

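Over 19 alternatives, 0 member and setting pairs of 190 passed the threshold, 176 kept the direction of the log2 fold change, sIVs over PBS, and the adjusted p of members ran from 0.577 to 1.00; 0 genes passed in any setting. Tfap2b, Lhx1, Onecut1 and Prox1 kept their direction in all 19. With limma-voom and quality weights Onecut3 was at 0.088 and Calb1 at -0.038. Without both sIVs replicate 4 and PBS replicate 1, Calb1 was at -0.066. With the gene length trend removed, Pax6 was at 0.097 and Onecut2 at 0.13. The cause was not tested. Leaving out 1 library at a time gave ranges of -0.11 to 0.013 for Tfap2a, -0.13 to 0.023 for Tfap2c, -0.25 to 0.029 for Onecut2, -0.30 to 0.040 for Onecut3 and -0.015 to 0.31 for Calb1. By the same step Onecut1 ran from -1.03 to -0.26, Prox1 from -0.38 to -0.09, Tfap2b from -0.34 to -0.15, the amacrine median from -0.14 to -0.06, the horizontal median from -0.28 to -0.02 and the difference in balance from -0.05 to 0.22. The lowest of these for Onecut1 came without sIVs replicate 1, the lowest horizontal median without sIVs replicate 3, and the highest for Onecut1, Prox1, Tfap2b and the horizontal median without sIVs replicate 4.

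With the replicate number as a block, 0 genes passed and 588 had an unadjusted edgeR p below 0.05, against 255 without it; Tfap2b was at -0.28, Prox1 at -0.30 and Onecut1 at -0.85. In that fit Tfap2b had an unadjusted p of 0.0509 and an adjusted p of 0.655 by edgeR's quasi-likelihood test. Deviations of libraries with the same number correlated at 0.02 to 0.60, and 6 of 8 libraries correlated best with their own number, a hint from the data and not the design. Depth limits the ONECUT genes and Lhx1, at 2 to 237 counts per library.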

Other observations

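Some amacrine transmitter genes, chosen after their values were seen, also lay apart in sIVs replicate 4 and did so in both directions. Of the 22 amacrine transmitter and structure genes, that library was highest for 12 and lowest for 8. Of all genes tested, it was highest for 35.7% and lowest for 35.4%. The glycine transporter gene Slc6a9 had 30.6 CPM in that library, against 72.9 to 88.3 CPM in the other sIVs libraries and 76.3 to 103 CPM in the PBS libraries. Chat, which makes acetylcholine in starburst amacrine cells, had 5.63 CPM there, against 11.7 to 14.8 CPM in the other sIVs libraries and 9.88 to 14.6 CPM in the PBS libraries. Slc32a1, the vesicular transporter of GABA and glycine, had 164 CPM there, against 110.1 to 125 CPM in the other sIVs libraries and 110.0 to 119.7 CPM in the PBS libraries. In log2 CPM its distance from the mean of the other 7 libraries was 0.49. Genes of its length bin had a median of 0.38 and an upper quartile of 0.72, so Slc32a1 was ordinary for its length. Slc6a9 and Chat, at -1.51 and -1.18, lay below the lower quartiles of their bins, -0.51 and -0.27, in sIVs replicate 4. Gad1, which makes GABA, had 319 CPM in that library, inside the range of the PBS libraries (299.6 to 326 CPM).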
